A study of Mus musculus with 50 samples.

Results

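Chromatin accessibility inside the longest protein-coding genes of the mouse was examined in hippocampal neurons of mice reared in 5 facilities. A peak, that is a stretch of DNA where ATAC-seq reads accumulate because the Tn5 transposase can cut there, was included when it lay wholly inside a protein-coding gene spanning more than 500 kb in the GRCm38 annotation and more than 2 kb from both ends of that gene. This held for 12819 of 144465 peaks (8.87%), in 224 of the 226 genes of that length among 21896 protein-coding genes, while Skint5 and Dach2 held no such peak. Of the members, 99 lay in more than 1 long gene (70 in Iqschfp and Schip1, 29 in Gm37013, Gm38666 and Gm38667) and were counted for each, and 57 lay within 2 kb of an end of another gene. The rule used gene length and position only, and none of the read counts.

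The mice were male C57BL/6JRj animals, an inbred strain, born to pregnant females of a single breeder (Janvier Labs) that had been allocated to 5 rearing facilities, RF1 to RF5. In each RF, 5 mice were sampled at 8 weeks of age in the facility itself (time point 1, TP1), and 5 of their brothers at 14 weeks of age after they had been moved to a common test laboratory (time point 2, TP2), so that the 50 libraries form 10 groups of 5. Each library came from the ventral hippocampus of a single side of the brain, frozen in hexane, from which nuclei carrying the neuronal protein NeuN (NeuN+) were sorted by flow cytometry. TP coincides with the batch of library amplification and sequencing, and a difference between TPs cannot be told apart from that batch.

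Most proteins encoded by very long genes in neurons act at the cell surface or the synapse: neurexins, teneurins, contactins and other adhesion molecules, ion channels and receptors, and the scaffolds beneath them. Their introns hold enhancers and alternative start sites, so that accessible sites inside the gene body can belong to the gene itself, to shorter transcripts starting within it, or to elements acting on other genes. ATAC-seq reports how open such a site is in the sorted nuclei as a whole, and it cannot tell a larger share of nuclei with an open site from a site that is more open in each nucleus.

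The sorted nuclei carried open chromatin at the starts of neuronal genes. Peaks within 2 kb of the gene start were present for 9 of 11 neuronal marker genes, with a median level of 7.79 CPM per kb (CPM, counts per 1000000 counts of the library), against 7 of 15 glial, microglial and endothelial markers, with a median of 3.22. The lists overlapped, with Gad2 at 2.224 and Prox1 at 3.774 beside Gfap at 3.81. Some glial start peaks varied widely between libraries, such as Olig2 (0.3664 to 4.153) and Gfap (1.66 to 7.722). Others varied less, such as the microglial Aif1 (2.284 to 4.653) and the neuronal Rbfox3 (6.125 to 10.84). The part of this spread in the RF differences was not tested. Libraries held between 33663505 and 77396321 counts in peaks at TP1 (median 44453692) and between 5111223 and 36401717 at TP2 (median 26030443). Of 100 within-group library pairs, 20 differed by no more than sampling noise, 7 at TP1 and 13 at TP2, and such libraries were counted as 1 in each n and SD below. At TP1 the RF1 libraries differed most among themselves. The variance between pairs of them was 2.86 to 23.5 times the noise limit, against 0.97 to 3.65 times within the other RFs. The tests took the spread of a peak or gene to be the same in all RFs. By the study's methods each TP2 mouse was a cage mate and brother of a TP1 mouse of its RF, but the labels do not pair them. The p-values measure the spread between these mice, and tests across the TPs take the 50 libraries as independent. At TP2, replicates 3 and 5 of RF1 and replicate 5 of RF2 stood apart from the rest of their groups in several of the genes described below, such as Dmd, Nav2 and Syt1, and results at TP2 are also given without them where they moved. As they were picked by their values, leaving them out narrows the spread within groups, and more calls follow in part from that choice. The smallest libraries were replicate 3 of RF1 (5111223 counts) and of RF2 (7287029). Without these, 111 long genes were lower in RF1 at TP2, beside 109 with all libraries. Replicate 5 of RF1 and of RF2 had 6.357% and 6.318% of their counts inside long genes, near the RF5 libraries (6.39% to 6.525%). The numbers in the titles of both, and of replicates 1 and 5 of RF5 at TP2, break the order of the other titles. Whether labels were exchanged was not tested.

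Accessible sites inside long genes were spread over the whole gene body. The genes held a median of 47.5 inside peaks each, from a single peak in Malrd1 to 230 in Dlg2, which encodes the postsynaptic scaffold PSD-93. Peaks covered 21.54 Mb of 192.4 Mb (11.2%), at a median density of 5.79 peaks per 100 kb, compared with 8.0 in 2202 genes of 100 to 500 kb. The densest gene was Syt1, which encodes the calcium sensor of synaptic vesicle release, with 104 peaks or 20.3 per 100 kb, whereas the X-linked Dmd, the longest of these genes at 2390 kb, held 31 peaks or 1.3 per 100 kb. Span and number of peaks ranked together only loosely (Spearman's rho of 0.31 over the genes, which are not independent replicates). With distance from the gene start, taken in the 179 genes with a RefSeq promoter (10309 peaks), the density was 6.08 per 100 kb between 2 and 20 kb and lay between 6.61 and 7.16 further inside.

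Some inside peaks cover a start site of a shorter transcript, and a few of these starts are shown because the results on inside start sites turn on them. RefSeq (GRCm38.p6) gave promoter sequences for 179 of the genes, with 134 start sites more than 2 kb from both gene ends in 82 genes. Of these, 88 lay wholly within 81 member peaks of 61 genes. The 200 bases before 4 of these start sites are shown 5′ to 3′ on the strand of the gene, with each CG dinucleotide, the target of DNA methylation, in capitals. Nav2 had the most accessible peak of this kind, Magi2 and Fgf13 were among those that differed most between RFs, and Elmo1 lacks the CG-rich sequence of the others.

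Nav2, chr7:49245989-49246188, plus strand: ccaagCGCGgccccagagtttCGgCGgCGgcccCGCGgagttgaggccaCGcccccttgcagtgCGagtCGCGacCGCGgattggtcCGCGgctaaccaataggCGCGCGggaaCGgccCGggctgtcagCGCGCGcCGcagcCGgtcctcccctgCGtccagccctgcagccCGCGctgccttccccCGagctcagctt
Magi2, chr5:19226846-19227045, plus strand: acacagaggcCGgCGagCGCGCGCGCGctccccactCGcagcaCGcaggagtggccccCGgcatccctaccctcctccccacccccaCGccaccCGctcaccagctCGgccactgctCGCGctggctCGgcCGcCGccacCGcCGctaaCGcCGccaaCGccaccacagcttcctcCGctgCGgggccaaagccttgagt
Fgf13, chrX:59134437-59134636, minus strand: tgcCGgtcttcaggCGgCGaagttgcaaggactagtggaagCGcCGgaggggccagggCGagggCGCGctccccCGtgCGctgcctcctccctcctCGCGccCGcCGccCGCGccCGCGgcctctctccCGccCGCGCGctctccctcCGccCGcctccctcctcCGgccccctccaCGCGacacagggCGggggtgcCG
Elmo1, chr13:20472790-20472989, plus strand: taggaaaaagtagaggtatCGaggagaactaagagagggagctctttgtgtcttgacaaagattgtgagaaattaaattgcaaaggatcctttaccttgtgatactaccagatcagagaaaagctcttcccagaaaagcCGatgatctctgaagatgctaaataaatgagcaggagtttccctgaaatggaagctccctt

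These stretches hold 29 CG in Nav2, 25 in Magi2, 29 in Fgf13 and 2 in Elmo1. Counted over the 300 bases from 250 before to 50 after the start site, Nav2 had 42, Magi2 29, Fgf13 37 and Elmo1 6. The share of all 32851 promoters with at least as many was 3.03% for Nav2, 12.9% for Magi2, 5.58% for Fgf13 and 56.4% for Elmo1. The median over the 88 inside start sites was 8.5, beside 7.0 over all promoters. The typical inside start site thus held fewer CG than those of Nav2, Magi2 and Fgf13, and slightly more than the typical promoter.

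In level, the members were weaker than peaks elsewhere. Their median was 2.331 CPM per kb, against 2.674 for 60878 peaks inside shorter genes, 2.578 for 49029 peaks outside genes and 5.147 for 21739 peaks within 2 kb of a gene end. They were of ordinary width (median 1543 bp, against 1505 bp for all peaks) and together took 5.96% of all counts. Fewer of them were shared by all groups: 28.9% were found in all 10 groups and 20.1% in a single group, compared with 37.9% and 16.3% of all peaks. The members that held an inside start site were wider (median 2853 bp) and more accessible (4.626 CPM per kb) than the other members (1535 bp and 2.327 CPM per kb).

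The share of each library's counts that fell inside long genes differed between RFs at both TPs. At TP1 the mean share was 5.84% ± 0.25 (SD, n = 5) in RF1 and 5.83% ± 0.14 (n = 5) in RF2. It was 5.42% ± 0.21 (n = 3) in RF3, 6.11% ± 0.17 (n = 4) in RF4 and 5.52% ± 0.26 (n = 4) in RF5. At TP2 it was 6.08% ± 0.18 (n = 5) in RF1 and 6.22% ± 0.08 (n = 3) in RF2, against 6.81% ± 0.04 (n = 3) in RF3, 6.22% ± 0.02 (n = 3) in RF4 and 6.46% ± 0.06 (n = 4) in RF5. RF3 thus had the lowest share of the 5 RFs at TP1 and the highest at TP2, where its 5 libraries (6.78% to 6.88%) lay above the other 20. A permutation test of the whole RF factor over libraries gave p = 8e-05 at TP1 and p = 1e-05 at TP2, the latter being the smallest value that 100000 permutations can give. For single RFs against the other 20 libraries, exact two-sided permutation tests (adjusted over 10 tests) gave a difference of -0.453 percentage points in RF3 at TP1 (p = 0.00803, and -0.406 with p = 0.062 when libraries within noise were merged) and 0.58 at TP2 (p = 0.000188), 0.46 in RF4 at TP1 (p = 0.00803) and -0.345 in RF1 at TP2 (p = 0.0237), which no longer passed without replicate 1, 2 or 4 (-0.325, -0.307 and -0.312). The share at gene ends moved the other way in some of these groups, being 34.7% in RF4 at TP1 and 32.7% in RF3 at TP2, and its part in these differences was not tested. With only the counts away from gene ends as denominator, the RF4 difference at TP1 was 0.203 percentage points (exact permutation test, adjusted p = 0.262) and the RF1 difference at TP1 was 0.433 (adjusted p = 0.0237).

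**Figure D1:**
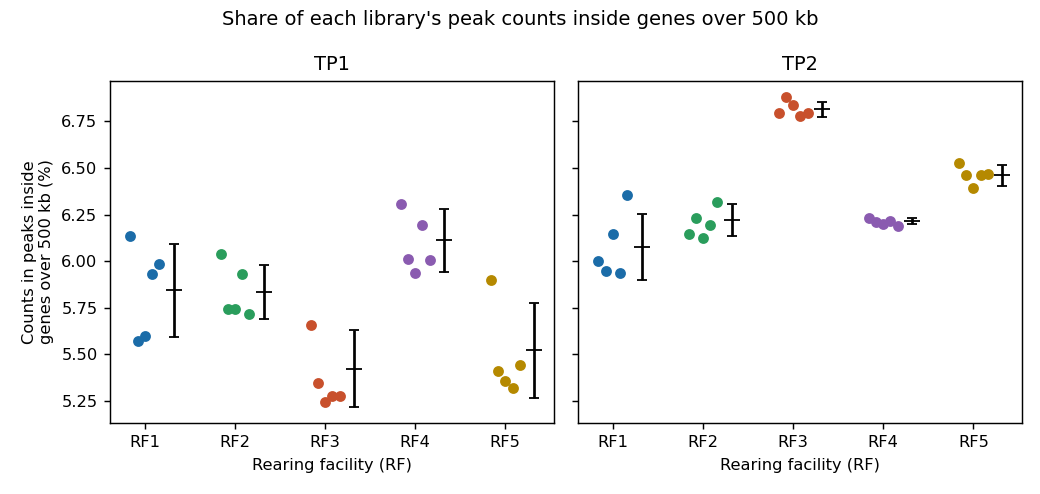
Percent of each library's counts that lay in peaks inside genes over 500 kb (y axis), by RF at TP1 and TP2 (x axis). Points are the 5 libraries of a group, and bars give the mean and SD of libraries counted once when within sampling noise. RF3 has the lowest mean at TP1 (5.42%), where its libraries overlap those of RF5 and RF1, and all its TP2 libraries lie above the others (mean 6.81%).

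Fewer peaks inside long genes than elsewhere depended on RF. A peak was called RF dependent when edgeR's quasi-likelihood F-test of the RF term passed a false discovery rate (FDR) of 0.01 over all peaks of the table. This held for 5667 members (44.2%) at TP1, where 59.1% of all peaks were called, and for 2348 (18.3%) at TP2, where 30.8% of all peaks were called. Without the 3 TP2 libraries named above, 4731 members were called at TP2, and leaving out replicate 1, 2 or 4 of every RF gave 960, 908 and 1034. Without those 3 libraries calls over all peaks rose too, as given below for larger differences. At matched counts the share of the members was also the lowest at TP1: among peaks with 100 to 200 counts per library on average, 44.7% of members were RF dependent, against 50.9% inside shorter genes, 67.8% at gene ends and 66.3% outside genes, and above 400 counts the shares were 70.4%, 77.3%, 92.9% and 84.5%. At TP2 the shares between 100 and 200 counts were 18.8% for members and 19.1% inside shorter genes, between 200 and 400 counts 25.2% and 33.2%, and above 400 counts 40.4% and 56.9%. Between 50 and 100 counts they were 12.3% and 11.6%, so that the share of the members was not the lower one there. The share of RF-dependent members lay between 42.1% and 48.5% at TP1 over the distances from the gene start in those genes.

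Larger differences were rarer. A differentially accessible region (DAR) was a peak with FDR below 0.01 and a log2 fold change of at least 0.5 in either direction for 1 RF set against the mean of its 4 counterparts. At TP1, 1569 members (12.2%) were a DAR of at least 1 RF, beside 19.7% of all peaks, and at TP2 625 (4.88%), beside 7.44% of all peaks, or 1732 without the 3 libraries. The 5 contrasts of a TP share their libraries and are not independent of each other. Most DARs at TP1 were peaks more open in RF1: 945 members were higher (7.37%, against 9.0% of all peaks) and 190 lower (1.48%, against 5.96%). RF1 was also the group of TP1 whose libraries differed most among themselves, as given above. In RF5 at TP1, 170 were higher (background 2.28%) and 305 lower (3.0%), in RF3 42 were higher (1.23%) and 129 lower (0.761%), in RF4 48 were higher (0.598%) and 86 lower (1.88%), and in RF2 25 were higher (0.168%) and 2 lower (0.072%). At TP2 the members more open in RF3 led, with 333 higher (2.60%, against 2.69% of all peaks) and 18 lower (0.888%). The other TP2 counts were 35 higher (1.14%) and 148 lower (1.22%) in RF1, 26 higher (0.541%) and 105 lower (1.32%) in RF4, 17 higher (0.217%) and 14 lower (0.688%) in RF5, and 4 higher (0.126%) and 5 lower (0.0464%) in RF2. Without the 3 libraries, 229 were higher and 879 lower in RF1, 54 and 83 in RF2, 576 and 33 in RF3 and 115 and 45 in RF5. All 144450 peaks tested then gave 6555 higher and 9987 lower in RF1 and 1379 and 794 in RF2. They gave 6542 and 2532 in RF3 and 1715 and 2530 in RF5, so that calls rose over all peaks too. For the counts with all libraries, the percentage in parentheses without further words is that of all peaks called in that direction.

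For a view of whole genes, the counts of all inside peaks of a gene were summed and tested in the same way over 10237 protein-coding genes. Of the 224 long genes, 208 (92.9%) depended on RF at TP1, where 74.9% of all genes did, and 201 (89.7%) at TP2, where 54.2% did. Sums over many peaks have a smaller counting error than sums over few, which was not corrected for. In RF1 at TP1 long genes were on balance more open, with a median log2 fold change of 0.23 (range -0.39 to 0.96) against -0.09 over all genes. Here 160 long genes were higher (24.5% of all genes were) and 28 lower (39.8% of all genes). In RF3 and RF5 at TP1 they were less open, with medians of -0.12 in both: 100 genes were lower in RF3 (9.34% of all genes) and 11 higher (21.4%), and 122 were lower in RF5 (13%) and 8 higher (18.3%). With libraries within noise summed and no replicate term, 12 were lower in RF3 and 63 in RF5. In RF4, 33 were higher (12%) and 23 lower (11.6%). Relative to the 1 Mb region described below, these became 130 higher and 10 lower, where 5197 of all 10237 genes were higher and 714 lower. RF2 had 4 higher (0.635%) and 0 lower (0.899%).

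At TP2 the order of the RFs was different. Long genes were more open in RF3, with a median of 0.17 against -0.05 over all genes, 141 genes higher (13.8% of all genes) and 26 lower (23.1%). They were less open in RF4 (median -0.11), with 120 lower (10.5%) and 25 higher (19.6%), and in RF1 (median -0.10), with 109 lower (7.08%) and 17 higher (17.6%). In RF5 the median was 0.08, with 52 higher (4.38%) and 12 lower (11.2%), and in RF2 0 were higher (0.313%) and 1 was lower (0.166%). Without the 3 libraries named above, RF1 had 33 higher and 150 lower, RF2 26 higher and 57 lower, RF4 41 higher and 138 lower, and RF5 150 higher and 27 lower. Calls over all 10237 genes rose as well in these RFs. They became 3201 higher and 1807 lower in RF1, 775 and 764 in RF2, 2337 and 1330 in RF4 and 1655 and 2866 in RF5. Leaving out replicate 1, 2 or 4 of every RF left 22, 17 and 28 genes lower in RF1 at TP2, and at TP1 leaving out replicate 4 left 55 lower in RF3 and 78 in RF5.

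Part of these shifts was shared with the surroundings of the genes. When the summed counts of each gene were taken relative to the peaks within 1 Mb outside the gene in the same library, the median of the long genes turned to -0.03 in RF1 at TP1 (44 higher and 84 lower), to 0.00 in RF4 at TP2 and to -0.02 in RF5 at TP2, and it was 0.07 in RF3 at TP2 (79 higher and 6 lower). Of all 10237 genes, 902 were then higher and 4746 lower in RF1 at TP1, and 688 higher and 200 lower in RF3 at TP2. The same scaling moved the median of all genes to -0.12 in RF1 and 0.14 in RF4 at TP1, where the median of the long genes was 0.10. At TP2 the medians of all genes were -0.01 in RF1, 0.04 in RF3, 0.03 in RF4 and -0.05 in RF5. For values relative to the region, 0 is therefore not the level of a typical gene. Directions below are those relative to the whole library, and many are also given relative to the region, where some flip.

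**Figure D2:**
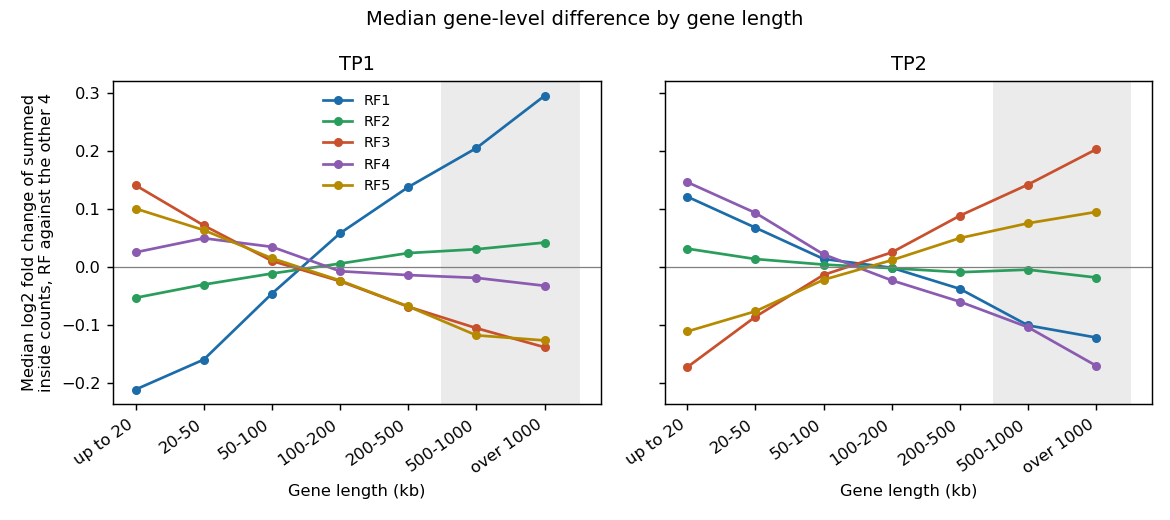
Median log2 fold change of the summed inside counts (y axis) by gene length in 7 bins in kb (x axis), for each RF against the mean of the others at TP1 and TP2. The grey area marks genes over 500 kb. Relative to the whole library, RF1 at TP1 climbs from -0.21 to 0.30 and RF3 at TP2 from -0.17 to 0.20. Relative to the 1 Mb region, RF1 at TP1 runs from -0.16 to -0.04, below 0 throughout, with a median of -0.12 over all genes.

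Over all genes with an inside peak, the signed shift went with gene length, and the shortest and longest genes were shifted in opposite directions relative to the whole library. In RF1 at TP1 the median log2 fold change was -0.21 in 2001 genes of up to 20 kb, -0.05 in 2249 genes of 50 to 100 kb, 0.14 in 746 genes of 200 to 500 kb, 0.21 in 165 genes of 500 kb to 1 Mb and 0.30 in 59 genes over 1 Mb. Relative to the 1 Mb region these became -0.16, -0.11, -0.05, -0.02 and -0.04. In RF3 at TP2 the medians went from -0.17 in the shortest to 0.20 in the longest bin, and from 0.02 to 0.07 relative to the region. In RF4 at TP2 they went from 0.15 to -0.17 relative to the whole library, and from 0.05 to 0.01 relative to the region. The share of genes called RF dependent rose from 70.2% to 96.6% at TP1 and from 44.3% to 91.5% at TP2 between the shortest and the longest bin, and long genes also carry more counts.

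Within the long genes, those with few peaks per length were shifted most. The 224 genes were ranked by peaks per 100 kb and divided into 4 groups of 56, with 997, 2301, 3593 and 6056 peaks. From the sparsest to the densest group, the median log2 fold change in RF1 at TP1 was 0.41, 0.32, 0.22 and 0.02. In RF3 at TP2 it was 0.27, 0.22, 0.17 and 0.01, in RF4 at TP2 -0.24, -0.17, -0.12 and 0.02, and in RF5 at TP1 -0.21, -0.16, -0.11 and -0.01. Relative to the 1 Mb region the RF1 values at TP1 were 0.06, -0.03, -0.07 and -0.04, and the RF3 values at TP2 0.15, 0.09, 0.06 and 0.01. The RF4 values at TP2 became -0.06, 0.01, 0.03 and 0.01. Across the 224 genes the density and the log2 fold change had a Spearman's rho of -0.548 in RF1 at TP1 and -0.59 in RF3 at TP2, as a description over genes that share the same libraries. The median span hardly differed between the groups (717.3, 869.4, 699.9 and 701.0 kb), and the 10 X-linked genes tested all lay in the sparsest group.

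**Figure D3:**
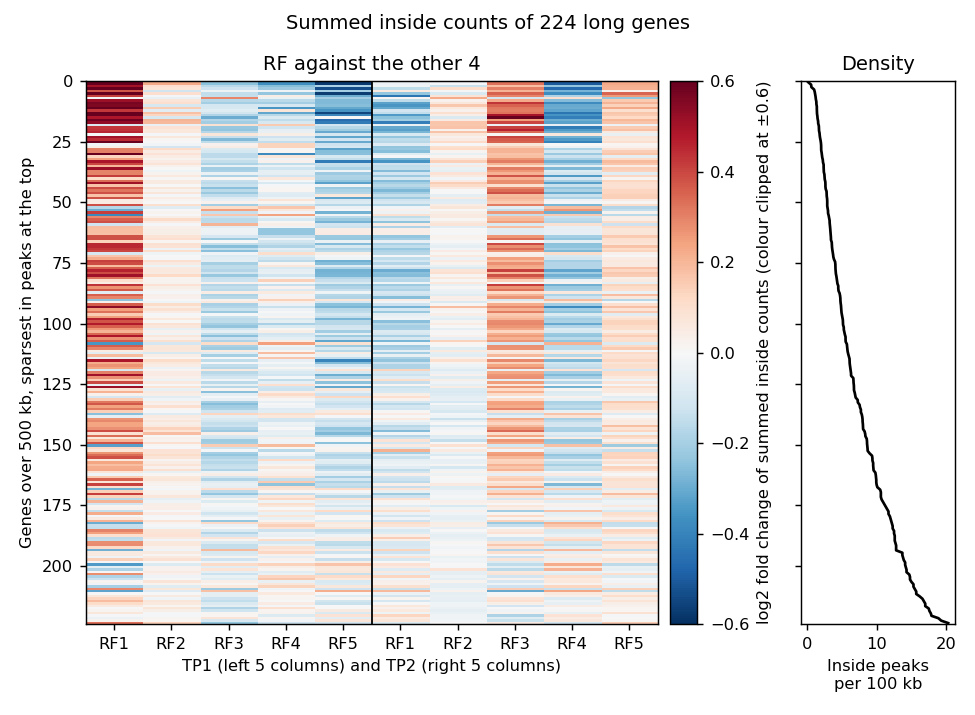
Log2 fold change of the summed inside counts of the 224 long genes (rows, sparsest in peaks per 100 kb at the top) for each RF against the mean of the others (columns, TP1 left and TP2 right), relative to the whole library. Colours stop at 0.6 in both directions. The upper rows are shifted up in RF1 at TP1 (median 0.41 in the sparsest 56 genes) and in RF3 at TP2 (0.27), and the lowest rows are near 0 (0.02 and 0.01). Relative to the 1 Mb region the sparsest genes have medians of 0.06 and 0.15.

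Long genes on the X chromosome, of which males carry a single copy, had a median log2 fold change of 0.65 in RF1 at TP1, beside 0.22 for the autosomal ones. X-linked genes of up to 500 kb were shifted too: their median was 0.42, and 185 of 244 (75.8%) were higher in RF1 at TP1 and 1 was lower, so that the direction was not limited to long genes. Il1rapl2 (chrX:137570754-138849077, 7 peaks) encodes a receptor-like adhesion protein of the interleukin-1 receptor family. At TP1 its summed inside counts were 23.04, 17.65, 16.18, 20.71 and 25.11 CPM in RF1, 13.14, 12.24, 15.01, 14.05 and 13.51 in RF2, and 11.69, 10.68, 9.1, 10.39 and 10.36 in RF3. They were 10.54, 9.775, 9.328, 10.25 and 8.872 in RF4 and 9.923, 8.554, 8.682, 8.242 and 8.034 in RF5. All 5 RF1 libraries lay above every other library of TP1, and the log2 fold change was 0.96. At TP2 the RF1 libraries spanned 13.06 to 22.57 CPM, overlapping the other RFs, the RF3 libraries 17.29 to 20.87 and the RF4 libraries 10.78 to 14.95. RF4 was lower at TP2 (-0.51) and RF3 higher (0.32).

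The other X-linked genes went the same way in RF1 at TP1. Of the 10 tested, 10 were higher there, and relative to the 1 Mb region their median was 0.06, with 3 higher and 3 lower. They included the protocadherin Pcdh11x (0.85), the nuclear protein gene Aff2 (0.80), Fgf13, whose product binds sodium channels (0.70), the teneurin Tenm1 (0.58), the dystrophin gene Dmd (0.52) and Il1rapl1 (0.50), and of these Dmd and Il1rapl1 turned negative relative to the region (-0.07 and -0.16). In RF5 at TP1 all 10 were lower, with a median of -0.38 (-0.23 relative to the region), beside 36.5% of the shorter X-linked genes. In RF4 they were lower at both TPs, 8 at TP1 (median -0.24, which became 0.19 relative to the region) and 10 at TP2 (-0.30, and -0.06 relative to the region). At TP2 9 were higher in RF3 (0.28), beside 18.9% of the shorter X-linked genes. The share of the shorter X-linked genes that were lower in RF4 was 30.7% at TP1 and 28.3% at TP2. At the level of single peaks, 102 of 126 X-linked members were RF dependent at TP1 (81.0%), and 72 (57.1%) were DARs higher in RF1 with 0 lower. Of the other 2179 X-linked peaks, 77.5% were RF dependent and 43.0% were DARs higher in RF1. The 214 autosomal long genes had medians of 0.22 in RF1 at TP1 and 0.16 in RF3 at TP2, and of -0.03 and 0.07 relative to the region.

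**Figure D4:**
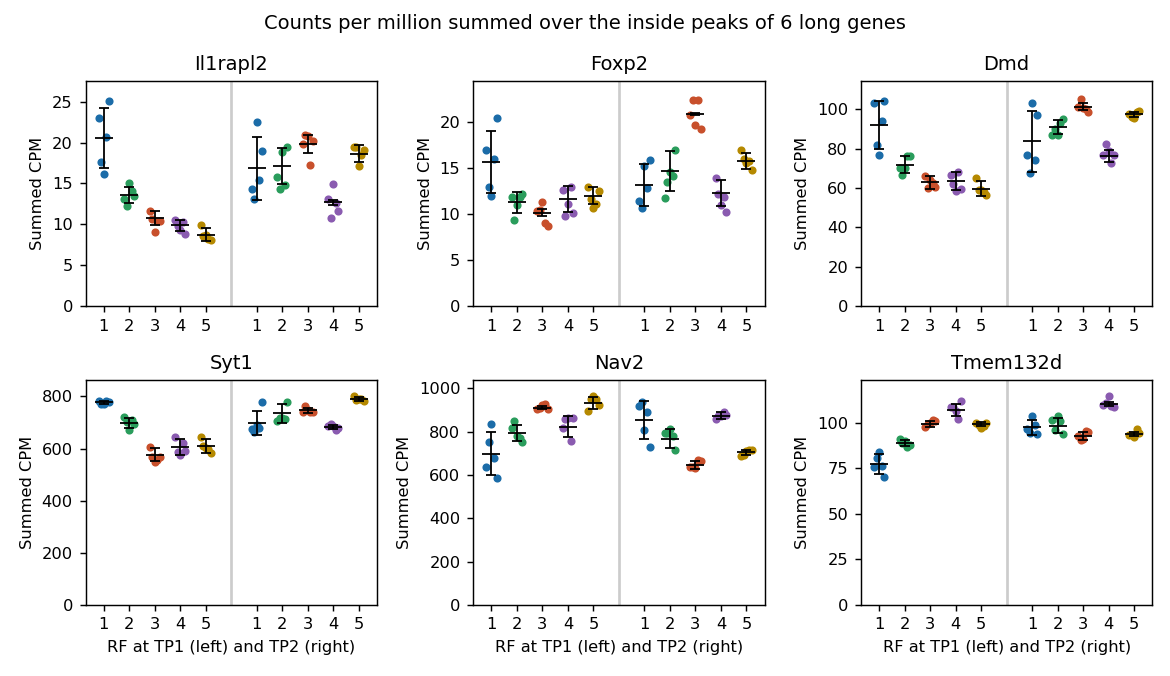
Summed inside counts in CPM (y axis, from 0) in every library by RF and TP (x axis) for Il1rapl2, Foxp2, Dmd, Syt1, Nav2 and Tmem132d, with mean and SD. Il1rapl2 in RF1 at TP1 lies at 16.18 to 25.11 CPM, above the other TP1 libraries, while Tmem132d in RF1 at TP1 lies at 70.21 to 83.84 CPM, below them. Relative to the 1 Mb region, Foxp2 and Dmd in RF1 at TP1 have log2 fold changes of -0.15 and -0.07, against 0.49 and 0.52 here. The median of all genes relative to the region is -0.12 there.

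Dmd is the gene of dystrophin, which links the cytoskeleton to the membrane. Its summed inside counts at TP1 were 103.0, 81.99, 76.68, 93.96 and 104.1 CPM in RF1, against 56.35 to 76.29 CPM in the 20 libraries of the other RFs. All RF1 libraries of TP1 were above the highest of the others, with the lowest RF1 library nearly reaching it. At TP2 they were 76.47, 67.44, 103.2, 74.22 and 96.81 CPM in RF1, so that replicates 3 and 5 lay near the RF3 range (98.74 to 105.3) and the other 3 near the RF4 range (72.72 to 82.08).

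On the autosomes, the largest gene-level increase in RF1 at TP1 was that of Malrd1 (0.88), which rests on a single peak. Other genes with a large increase there were Spag16, a ciliary gene (0.61, 13 peaks), Fstl5 (0.53, 10 peaks), the transcription factor gene Foxp2 (0.49, 8 peaks) and the diacylglycerol kinase gene Dgkb (0.49, 46 peaks), with Foxp2, Dgkb and Fstl5 at -0.15, -0.06 and -0.01 relative to the region. Foxp2 (chr6:14901349-15441977) had 20.76, 22.38, 19.65, 22.36 and 19.22 CPM in RF3 at TP2. The other 20 libraries of TP2 lay between 10.24 and 17.01 CPM, below all of these, and the log2 fold change of RF3 was 0.62 (0.22 relative to the region). Spag16 was also higher in RF3 at TP2 (0.50, 0.20 relative to the region).

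A smaller group of genes went the other way in RF1 at TP1. The most negative were Sdk1, an immunoglobulin-type adhesion molecule of synaptic layers (-0.39), the transmembrane protein gene Tmem132d (-0.35), Csmd2 (-0.34), the neuron navigator Nav2 (-0.32), Thsd4 (-0.32), Frmd4a (-0.30) and Dock1, an activator of the small GTPase Rac (-0.30). They held their sign relative to the region, with values between -0.22 in Sdk1 and -0.03 in Dock1. Nav2 (chr7:48959063-49610090, 102 peaks) had 638.1, 753.5, 836.4, 678.4 and 587.1 CPM in RF1 at TP1, and 903.2 to 927.3 in RF3 and 895.1 to 962.5 in RF5. At TP2 it had 637.2, 638.3, 632.4, 670.7 and 662.3 CPM in RF3, below the 20 other libraries (689.4 to 937.5). Nav2 therefore had its lowest mean in RF1 at TP1 and in RF3 at TP2, and 89 of its 102 peaks were RF dependent at TP1 and 66 at TP2.

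Tmem132d (chr5:127783491-128433077, 37 peaks) separated RF1 and RF4. It had 75.33, 80.69, 83.84, 75.95 and 70.21 CPM in RF1 at TP1, and 108.5, 108.6, 106.5, 102.0 and 111.6 in RF4. The groups did not overlap, with the other RFs between 86.56 and 101.1. At TP2 the RF4 libraries were again the highest, at 108.3 to 114.3 CPM against 90.55 to 103.4 in the others, and RF4 was called higher at both TPs (0.25 and 0.21).

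The 10 genes with the most peaks moved little in RF1 at TP1. Rbfox1, a splicing regulator with 226 peaks, was at -0.19 (0.04 relative to the region), Csmd1, with 207 peaks, at -0.15 (0.01), Dlg2, with 230 peaks, at -0.14 (-0.02), and Opcml, with 168 peaks, at -0.13 (-0.04). Tenm2, with 199 peaks, was at 0.07 (0.07), and Celf2, Erc2, Lsamp, Dab1 and Dlgap1 lay between -0.05 and 0.06 with no call in RF1. Dlg2 (chr7:90476188-92449246) had 826.5 to 1133 CPM in RF1 at TP1 against 975.2 to 1181 in the others, so that the groups overlapped. Syt1 (chr10:108497650-109010980), the densest gene, moved more. It had 782.4, 771.2, 772.7, 783.6 and 776.9 CPM in RF1 at TP1, above the 20 other libraries (546.6 to 721.1), with a log2 fold change of 0.33 (0.09 relative to the region), and at TP2 its highest libraries were those of RF5 (783.2 to 802.6, log2 fold change 0.15).

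The long genes were also grouped by what their products do, starting with surface molecules. Over all long genes 71.4% were higher and 12.5% lower in RF1 at TP1, and 62.9% were higher and 11.6% lower in RF3 at TP2, and the counts below are to be read beside these. Values relative to the region are to be read beside the medians of all genes on that scale. These were -0.12 in RF1 at TP1, and 0.04 in RF3 and 0.03 in RF4 at TP2. Of 19 long synaptic adhesion genes, which hold neurexins, contactin-associated proteins, teneurins and latrophilin-type receptors, 16 were higher and 2 lower in RF1 at TP1 (median 0.29, against -0.09 over all genes, and -0.06 relative to the region). At TP2, 15 were higher and 1 lower in RF3 (median 0.21, 0.04 relative to the region) and 14 were lower and 1 higher in RF4 (-0.16, which became 0.05). Examples are Adgrb3, which organizes excitatory synapses (0.29 in RF1 at TP1, 0.03 relative to the region), and Adgrl3, a latrophilin (0.27, -0.21 relative to the region). Of 9 cadherin, protocadherin and catenin genes, 8 were higher and 0 lower in RF1 at TP1 (median 0.39, -0.04 relative to the region), and at TP2 7 were higher and 0 lower in RF3 (0.28, 0.03 relative to the region). Ctnna2, the neuronal alpha-catenin, was at 0.39 in RF1 at TP1 and Pcdh9 at 0.32, and both were below 0 relative to the region (-0.04 and -0.29). The 18 immunoglobulin-type adhesion and axon guidance genes were more divided, with 10 higher and 4 lower in RF1 at TP1 (median 0.15, -0.11 relative to the region) and 10 higher and 5 lower in RF3 at TP2 (0.08, 0.02 relative to the region), Negr1 (0.24, -0.07 relative to the region) and Sdk1 (-0.39) standing on either side.

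Receptors, channels and the machinery beneath them came next. Of 14 genes of ion channels and their subunits, 11 were higher and 1 lower in RF1 at TP1 (median 0.15, -0.05 relative to the region), and 8 were higher and 1 lower in RF3 at TP2 (0.11, 0.02 relative to the region). Kcnd2, a potassium channel of dendrites, was at 0.34 in RF1 at TP1 and at -0.21 relative to the region. Of 7 glutamate and GABA receptor genes, 4 were higher and 2 lower in RF1 at TP1 (0.24, -0.03 relative to the region), among them the metabotropic receptors Grm8 (0.42, 0.17 relative to the region) and Grm7 (0.24, 0.08 relative to the region). Of 18 scaffold and vesicle release genes, 12 were higher and 2 lower in RF1 at TP1 (0.20, -0.02 relative to the region), with the smallest adjusted p in Syt1.

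Other lists held genes with roles inside the cell. In RF1 at TP1, 12 of 19 signalling genes were higher and 2 lower (median 0.14, -0.05 relative to the region), and 9 of 15 transcription factor and chromatin genes higher and 2 lower (0.13, 0.06 relative to the region), with Nfia at 0.41 and Zbtb20, a regulator of hippocampal identity, at 0.07. In RF3 at TP2, 12 signalling genes were higher and 1 lower (0.16, 0.11 relative to the region), and 8 transcription factor and chromatin genes higher and 1 lower (0.12, 0.06 relative to the region). The 4 RNA-binding protein genes were split, with 1 higher and 1 lower in RF1 at TP1 and medians of 0.00 (0.05 relative to the region) there and -0.02 in RF3 at TP2 (0.07 relative to the region), and the 6 genes of the complement-like and lipoprotein receptor families likewise, with 3 higher and 2 lower in RF1 at TP1 (0.11, -0.06 relative to the region). Of 24 genes known from common fragile sites, 15 were higher and 4 lower in RF1 at TP1 (0.25, -0.04 relative to the region) and 16 higher and 5 lower in RF3 at TP2 (0.18, 0.08 relative to the region). The list of glial and myelin genes had 6 long members, Npas3, Sgcd, Pde4b, Pcdh15, Lhfpl3 and Dscam, of which 5 were higher and 0 lower in RF1 at TP1 (0.31, 0.04 relative to the region). These are not defining markers of glia: Sgcd is a sarcoglycan known from muscle, Pcdh15 a protocadherin of hair cells and Dscam a neuronal adhesion molecule that is also in the immunoglobulin list. In all, 140 of the long genes were in at least 1 of these 12 lists.

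Peaks of a gene often had the sign of their sum. In 213 genes with at least 10 inside peaks, a median of 87.8% of a gene's peaks had the sign of its sum in RF1 at TP1 (range 38.4% to 100%), and 87.9% in RF3 at TP2 (31.2% to 100%), where a peak is part of the sum it is compared with. The median was 83.7% in RF3 at TP1, 78.6% in RF1 at TP2, and 73.4% and 74.6% in RF5 at TP1 and TP2. The SD of the log2 fold changes of a gene's peaks was 0.19 in RF1 at TP1 and 0.16 in RF3 at TP2 at the median. By distance from the gene start, in the 179 genes with a RefSeq promoter, the median peak value in RF1 at TP1 lay between 0.09 and 0.13, whereas in RF3 at TP2 it was 0.14 up to 20 kb and 0.08 beyond 500 kb, in RF5 at TP1 0.00 up to 20 kb and -0.07 to -0.04 further inside, and in RF4 at TP1 -0.01 up to 20 kb and 0.03 to 0.05 further inside.

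The peaks at the starts of the long genes had other values than their bodies. A peak at the gene start was found for 125 genes, with a median level of 6.146 CPM per kb, and 114 (91.2%) of these were RF dependent at TP1 and 76 (60.8%) at TP2, beside 80.4% and 55.2% of all peaks within 2 kb of a gene end. At TP1 start peaks were more open in RF1 (median 0.34, 27 DARs higher and 0 lower, beside 7.43% and 7.03% of peaks at gene ends) and less open in RF4 (-0.35, 0 higher and 20 lower, beside 0.46% and 5.25%), while in RF5 their median was 0.01, against -0.12 for the gene bodies. At TP2 their medians were 0.03 in RF3 and 0.16 in RF5, against 0.17 and 0.08 for the bodies. A test of start against body within a gene was not run.

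Peaks at inside start sites were described apart from the other members. Of the 81 members that hold one, 57 (70.4%) were RF dependent at TP1 and 38 (46.9%) at TP2, against 44.0% and 18.1% of the other members, which have fewer counts. Their median in RF4 at TP1 was -0.20, against 0.04 for the other members, in RF1 at TP1 0.25 against 0.09, and in RF3 at TP2 0.01 against 0.09. Magi2, which encodes a synaptic scaffold, has such a start 7.659 kb inside the gene, in a peak at chr5:19225679-19228489. Its TP1 libraries reached 42.84 to 59.74 CPM in RF1 (median 47.64), 30.48 to 41.17 in RF2 (36.46), 31.09 to 35.79 in RF3 (33.02), 21.38 to 28.57 in RF4 (23.62) and 26.68 to 31.24 in RF5 (31.09). The RF1 libraries lay above all others and the log2 fold change was 0.67 (SE 0.05, adjusted p = 3.47e-17 by edgeR's quasi-likelihood test with Benjamini-Hochberg adjustment), while RF4 was lower (-0.60). At TP2 the medians of the 5 RFs lay between 28.72 and 34.06 CPM and the RF term did not pass the test (adjusted p = 0.0217, edgeR).

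The inside start site of Fgf13, 451.1 kb from the gene start, differed in the same RFs. Its peak, chrX:59132927-59135739, had a median of 30.77 CPM in RF1 at TP1 (25.43 to 35.97) and 14.23 in RF4 (12.81 to 15.44), the other 3 RFs having 16.96 to 22.9 CPM. RF1 was higher by 0.83 (SE 0.05, adjusted p = 3.75e-19, same test) and RF4 lower (-0.60). Elmo1, which acts in Rac signalling and phagocytosis, has an inside start site 382.5 kb from its start, with 24.91 to 39.94 CPM in RF1 at TP1 (median 31.74) against 16.57 to 25.33 in the other RFs, so that the ranges just overlapped. Its log2 fold change in RF1 at TP1 was 0.67, the same as that of Magi2, although the stretch shown above holds 2 CG in Elmo1 and 25 in Magi2.

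The inside start site of Nav2 behaved differently. Its peak, chr7:49245668-49249194, was the most accessible of these peaks with 15.59 CPM per kb. The median was 56.02, 55.72, 65.97, 49.04 and 70.15 CPM in RF1 to RF5 at TP1, and 60.7, 53.76, 38.08, 54.87 and 49.67 CPM at TP2. It was higher in RF3 (0.21) and RF5 (0.27) and lower in RF4 (-0.36) at TP1, and at TP2 the RF3 libraries (35.52 to 43.84) lay below all others, with a log2 fold change of -0.49 (SE 0.05). The change of the RF differences between TPs passed the interaction test (adjusted p = 3.67e-18, edgeR).

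A run of 5 neighbouring peaks in Lpp held the 4 largest log2 fold changes of any member past the threshold in any RF and TP. Lpp encodes a LIM-domain protein of cell adhesions (chr16:24393350-24992578, 50 peaks). The 5 peaks lay 143 to 182 kb from the gene start and were far less accessible in RF5 at TP1. The peak at chr16:24568775-24570924 had 1.396, 0.9358, 0.892, 0.6984 and 0.8927 CPM in RF5 at TP1. It had 2.523 to 3.111 in RF1, 5.28 to 6.18 in RF2, 4.662 to 6.398 in RF3 and 2.883 to 4.021 in RF4. The RF5 libraries thus lay below every other library, RF2 and RF3 lay above the remaining ones, and the log2 fold changes were -2.10 in RF5 (SE 0.11, adjusted p = 3.85e-22, edgeR), 1.08 in RF2 and 0.98 in RF3. At TP2 the same peak had 6.242 to 6.933 CPM in RF5, inside the range of the other RFs (4.332 to 8.24).

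In the 4 neighbouring peaks RF5 also had the lowest mean at TP1, and RF2 and RF3 had the highest. In RF5 at TP1 the log2 fold changes were -1.68 for chr16:24534841-24536941, -1.88 for chr16:24541720-24543900, -1.19 for chr16:24566434-24567766 and -2.28 for chr16:24575357-24575848, with 0.79 to 1.33 in RF2 and 0.79 to 0.98 in RF3. The peak of -1.19 was named after its values were seen. The other 45 inside peaks of Lpp had a median of -0.11 in RF5 at TP1 (range -0.67 to 0.28), with 1 DAR lower. At TP2 the 5 peaks lay between -0.25 and 0.13 in RF5 and 0 were called in RF5, and the interaction of RF and TP passed for 5 of 5. Other RFs still differed in some of these peaks at TP2 (FDR below 0.01, edgeR). The peak starting at 24541720 was lower in RF1 (-0.59) and higher in RF3 (0.33). The peak starting at 24534841 was lower in RF1 (-0.34) and higher in RF4 (0.34). Among all members, 9 had a log2 fold change of -1 or less in RF5 at TP1 with FDR below 0.01, and 5 of them were these. The same count was not made over all peaks. The gene sum of Lpp was -0.27 in RF5 at TP1, and without the 5 peaks the mean log2 CPM in RF5 minus that of the other RFs was -0.15.

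**Figure D5:**
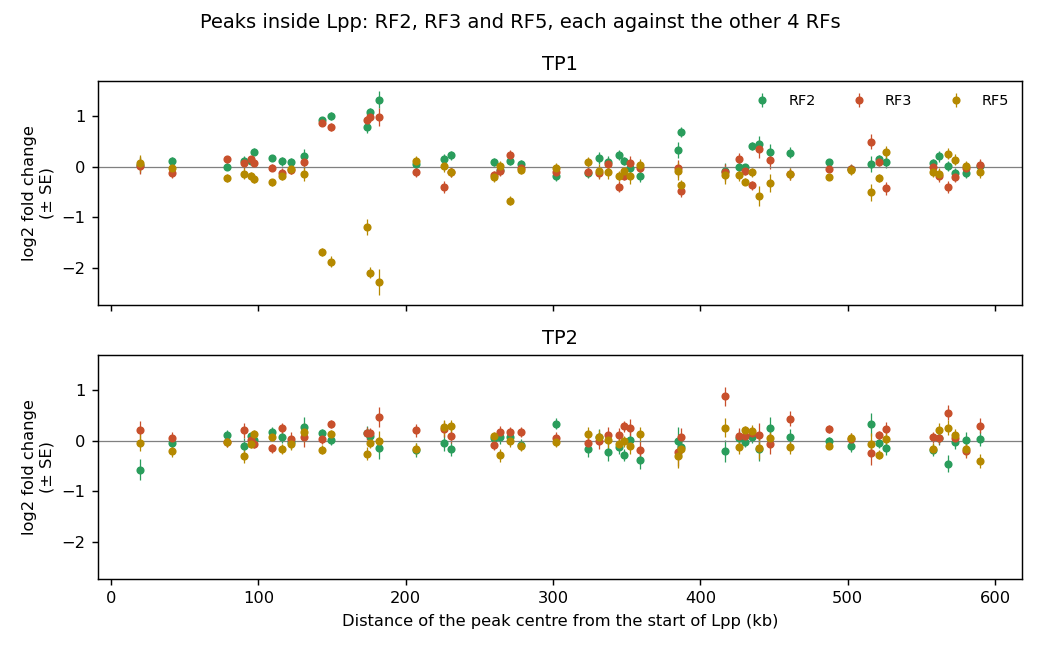
Log2 fold change with SE (y axis) of the 50 inside peaks of Lpp at TP1 (top) and TP2 (bottom) by distance from the gene start in kb (x axis), for RF2, RF3 and RF5 with each RF set against the remaining 4. At TP1 the 5 peaks between 143 and 182 kb stand out, with RF5 at -1.19 to -2.28 and RF2 and RF3 at 0.79 to 1.33, while the other 45 peaks lie between -0.67 and 0.28 in RF5. At TP2 the same 5 peaks lie between -0.25 and 0.13 in RF5.

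Members with a wide range between RFs were also found in other genes. A peak of Car10, chr11:93587491-93588276, had 3.452, 2.957, 3.033, 3.05 and 3.738 CPM in RF5 at TP1, above the 20 other libraries (0.6669 to 1.885), with a log2 fold change of 1.46 where the gene sum was at 0.07. At TP2 its RF5 libraries (1.017 to 1.602) overlapped the others. The peak of Il1rapl2 at chrX:137848113-137849883 followed its gene, with 1.16 in RF1 at TP1 for the peak and 0.96 for the gene sum. At TP2 the widest ranges were in peaks of Sgcz, Lrmda, Sugct, Ptprt, Edil3 and Rarb. The peak of Sugct, chr13:17494871-17496035, had 3.259, 3.36, 4.545, 3.698 and 3.519 CPM in RF3 at TP2, above the 20 other libraries (0.3994 to 2.608), and a log2 fold change of 0.92 (gene sum 0.43). Of the 12819 members, 56 at TP1 and 12 at TP2 had a log2 fold change of at least 1 in either direction in any RF. The same count was not made over all peaks.

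The differences between RFs were not the same at both TPs. The interaction of RF and TP passed for 5391 members (42.1%), beside 54.4% of all peaks, and for 210 of 224 gene sums (93.8%), beside 73.9% of all genes. In RF1 the log2 fold change against the other RFs differed between TP2 and TP1 by a median of -0.32, with 165 genes lower and 30 higher at TP2. In RF3 it differed by 0.29, with 158 genes higher and 24 lower, in RF5 by 0.22, with 140 higher and 16 lower, and in RF4 by -0.11, with 10 higher and 41 lower. Over all 10237 genes the median was 0.14 in RF1, with 4113 higher and 2352 lower, and -0.09 in RF3, with 1991 and 3463. It was -0.07 in RF5, with 1551 and 2617, and 0.01 in RF4, with 919 and 297. The TPs have separate libraries, and 102 long genes were called higher in RF1 at TP1 and lower in RF1 at TP2, while 2 were higher and 2 lower at both and 10 were lower first and higher later. Of all genes, 5.69% were called higher in RF1 at TP1 and lower at TP2. The 102 became 20, 15 and 25 when replicate 1, 2 or 4 of every RF was left out at TP2, 53 with libraries within noise summed and 14 relative to the 1 Mb region. In RF3, 86 genes were lower at TP1 and higher at TP2, beside 5.68% of all genes, and this became 4 with libraries within noise summed and 31 relative to the region. In RF4, 15 genes were higher at both TPs, among them Tmem132d, and 17 lower at both, beside 4.3% and 3.06% of all genes.

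The smallest interaction p-values at the gene level were those of Grm7, Syt1, Adgrl3, Pcdh9 and Adgrb3. Pcdh9, a protocadherin, had 258.2 to 313.6 CPM in RF1 at TP1, above all other TP1 libraries (204.6 to 252.0), and at TP2 268.2 to 317.7 in RF1 against 339.1 to 356.8 in RF3. Adgrl3 had 204.1 to 261.4 CPM in RF1 at TP1 and 214.6 to 247.8 at TP2, whereas RF3 had 170.7 to 194.6 at TP1 and 269.6 to 287.2 at TP2. The RF1 ranges of both genes overlapped between the TPs, and the other RFs, RF3 most of all, were higher at TP2 on the CPM scale, where TP and sequencing batch cannot be told apart.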

How the data were processed

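ATAC-seq libraries of sorted NeuN+ nuclei were trimmed by the authors with fastp, aligned with Bowtie2 to GRCm38, and marked for duplicates with Picard 1.140. The authors called broad peaks per library with MACS2 2.1.4 (q-value 0.05, broad cutoff 0.1), and each deposited peak carries its q-value as −log10. Peaks seen in 3 or more of a group's 5 libraries were united by the authors with multovl. The deposited score of a merged peak, a whole number up to 10, was read as the number of groups holding it. The deposited counts are raw reads per merged peak from featureCounts (minimum overlap 30 bases). The table deposited as normalized counts was identical to the raw counts and was not used.

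Gene coordinates and promoters came from the RefSeq annotation of GRCm38. Counts were scaled by trimmed mean of M-values factors and tested with edgeR 4.0.16 in R 4.3.3 (low counts removed by filterByExpr, robust quasi-likelihood fit), separately per TP, with RF and replicate number, which stood in for the sorting batch (5 per TP) of the study's model. All 12819 members passed the filter. Each RF was compared with the mean of the other 4, and p-values were adjusted by Benjamini-Hochberg over all peaks or all 10237 genes. The interaction of RF and TP was fitted over all 50 libraries. CPM are counts divided by the scaled library size in units of 1000000 counts. In simulated counts for 20000 peaks, 90 of 100 peaks changed by 0.7 on the log2 scale were found at TP1, 70 at TP2 and 24 for the interaction. The simulation shifted RF1 only and used a single spread for all peaks, with no batch and no outlying library. It checks the fitting and does not give the power in these data. Shares of counts were tested by permutation (scipy 1.17.1). Intervals of depth cover counting error only.

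The members, the gene lists and the tests were chosen with earlier results of these data known. Genes were named by rule: the 10 with the most inside peaks, the 3 of each list with the smallest adjusted p at TP1, the 2 highest and 2 lowest per RF and TP among those past the threshold, the 5 with the smallest interaction p, the 3 with the highest and the 3 with the lowest peak density, the longest, and Dlg2 and Lrrc4c, which the study displays as tracks. Peaks named were the 6 with the widest range between RF means at each TP. Peak sequences were not analysed here. Alternatives were DESeq2 1.42.0, other size factors, a loess offset, counts relative to the 1 Mb region, no low-count filter, no replicate term, libraries within noise summed, each replicate left out, and other limits of gene length and distance.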

Additional observations from a re-analysis of the deposited data

Results flagged for a closer look

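Of 100 groups of 5 libraries examined, 8 held a library far from the other 4, and chance alone gives about 1 in 20 groups. In Syt1, replicate 5 was the high one in RF1 (778.1 CPM) and in RF2 (777.3 CPM) at TP2, and replicate 5 of RF2 was also low in Dlg2 (1033 CPM). Replicate 1 of RF3 at TP1 was high in Dlg2 (1084 CPM) and in the share of counts inside long genes (5.66%), and replicate 1 of RF5 at TP1 was high in that share (5.9%) and in Lrrc4c (275.8 CPM), which encodes a synaptic ligand receptor partner of netrin-G. Replicate 4 of RF3 at TP2 was low in Il1rapl2 (17.29 CPM).

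The RF differences differed between the TPs by the interaction test (edgeR, FDR below 0.01) in 5391 members, in 210 of the long genes and in 58 of the 62 genes chosen for naming. The smallest adjusted p-values of gene sums were 2.4e-16 in Grm7, 6.4e-16 in Syt1, 1.97e-15 in Adgrl3, 4.46e-15 in Pcdh9 and 5.1e-15 in Adgrb3. All 5 peaks of the run in Lpp also passed it.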

How the results depend on the processing

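Taking counts relative to the 1 Mb region gave the most changes. It left 639 DARs at TP1, 420 RF-dependent members and 91 DARs at TP2 and 1940 members with an interaction, and among the gene sums 44 higher in RF1 and 63 lower in RF3 at TP1, and 55 lower in RF1, 79 higher in RF3 and 14 lower in RF4 at TP2. Over all 10237 genes it gave 902 higher in RF1 and 833 lower in RF3 at TP1. At TP2 it gave 478 lower in RF1, 688 higher in RF3 and 127 lower in RF4 over all genes. Medians changed sign in RF1 at TP1 (-0.025 over genes, -0.0483 over peaks) and at TP2 in RF4 (0.0032) and RF5 (-0.0233) over genes. In RF1 at TP1 the sign also changed in Adgrl3 (-0.21), Ank2 (-0.18), Cadm2 (-0.18), Csmd3 (-0.34), Dgkb (-0.0593), Dmd (-0.0742), Epha6 (-0.18), Fgf14 (-0.11), Foxp2 (-0.15), Grik2 (-0.20), Il1rapl1 (-0.16), Kcnd2 (-0.21), Lrp1b (-0.10), Negr1 (-0.067), Pcdh9 (-0.29) and Rbfox1 (0.042). The median of all genes on this scale was -0.12 in RF1 at TP1. Negative values nearer 0, such as those of Dgkb and Dmd, thus lay above the typical gene. For peaks the region includes the peak and its gene, so a shift of the whole gene is removed by construction. With libraries within noise summed and no replicate term, 903 members were RF dependent and 349 were DARs at TP2, and 12 genes were lower in RF3 and 63 in RF5 at TP1 and 61 in RF1 and 56 in RF4 at TP2, with fewer libraries in the fit. Without replicates 3 and 5 of RF1 and 5 of RF2, which were picked by their values, 4731 members were RF dependent and 1732 were DARs at TP2. DARs over all peaks rose too, to 6555 higher and 9987 lower in RF1. Leaving out a replicate number in turn gave 908 to 3342 RF-dependent members and 313 to 1264 DARs at TP2, 55 to 127 genes lower in RF3 and 78 to 125 in RF5 at TP1, and 17 to 140 lower in RF1 at TP2. It gave differences of -0.41 to -0.307 percentage points for the share of counts of RF1 at TP2. The share of counts lost its call in RF3 at TP1 with noise-level libraries merged (-0.406, adjusted p = 0.062), in RF4 at TP1 with counts away from gene ends (0.203, p = 0.262) and in RF1 at TP2 with genes over 300 kb (-0.464, p = 0.0672), all by permutation. Without the replicate block 5315 members at TP1, 2350 at TP2 and 5298 for the interaction passed. The deviations of same-numbered libraries had a median correlation of 0.0253 at TP1 and -0.000319 at TP2 (0.302 and 0.281 at the highest), and 11 of 25 libraries at TP1 and 5 at TP2 correlated best with one of their own number, held by 4 of the 24 other libraries, which is a hint of shared deviation at TP1. Totals of TP1 libraries were 33663505 to 77396321 counts and those of TP2 libraries 5111223 to 36401717, so smaller differences could be detected at TP1.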

Other observations

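Other inside start sites among the most accessible, chosen after their values were seen, are given as log2 fold changes at TP1 (edgeR, adjusted p below 0.01 unless stated). In Schip1, whose product lies at nodes of axons, the peak 507.6 kb inside the gene had 73.32 to 86.53 CPM in RF1 and 44.81 to 49.5 in RF4, with values of 0.54 and -0.41. In Epha6, an ephrin receptor, the peak 5.38 kb inside had 26.66 to 34.21 CPM in RF1 and 15.83 to 18.13 in RF4, with 0.45 and -0.51. In Anks1b, a synaptic protein, the peak 956.9 kb inside had 48.41 to 59.64 CPM in RF1 and 31.12 to 33.73 in RF4, with 0.48 and -0.43. In each of these the RF1 and RF4 libraries did not overlap. Asic2, an acid-sensing channel, was lower in both RFs 815.5 kb inside (-0.24 and -0.23), and Cacna1c, the calcium channel, was lower in RF4 88.89 kb inside (-0.29) with 0.07 in RF1 (adjusted p = 0.204, edgeR).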
